A study of Mus musculus with 23 samples.

Results

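Lungs of mice that inhaled bacterial lipopolysaccharide (LPS) and then received oxidized alpha1-antitrypsin were compared, by RNA-seq, with lungs of mice that inhaled LPS and received no antitrypsin. The libraries were taken by title: replicates 5101 to 5105 for LPS with oxidized AAT (LPS+oxAAT, n = 5) and 1101 to 1105 for LPS alone (LPS, n = 5), which are 10 of the 23 libraries of the series. Both groups were male Balb/c mice, and the labels give no age. On each of 3 days the mice breathed an LPS aerosol of 0.21 mg/ml for 10 min, and 1 h later they were injected into the peritoneum, at 4 mg/kg body weight in the LPS+oxAAT group. The protocol names saline for mice without AAT, and the experiment ended 6 h after the final injection. The labels state neither the origin of the protein nor how it was oxidized, and the mice kept their own antitrypsin genes. The other groups, used only to place the values, were clean air (n = 3), LPS with native AAT (LPS+nAAT, n = 5) and LPS with recombinant AAT (LPS+recAAT, n = 5), at the same dose of AAT.

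Alpha1-antitrypsin (AAT) is a serpin made mainly in the liver that enters the lung from the blood and inhibits neutrophil elastase. Oxidation of methionines in its reactive loop weakens that inhibition, and oxidized AAT is found in inflamed airways. Inhaled LPS acts through the receptor TLR4 on macrophages and epithelium, which release cytokines and chemokines that bring neutrophils into the airspace.

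Depth, as counts in genes, was 19.7 to 33.8 M per LPS library and 24.5 to 38.0 M per LPS+oxAAT library. The lung label was borne out by alveolar type 2 markers, which summed to 31890 to 38840 CPM (counts scaled to the size of the library) in LPS and 30930 to 36390 CPM in LPS+oxAAT. The LPS+oxAAT libraries were not of a single kind. In 5101 and 5102, as in all LPS libraries, mt-Nd6, which is read from the other strand of the mitochondrial genome than mt-Nd5, had at most 1.14% of the count of mt-Nd5. In 5103, 5104 and 5105, as in all LPS+recAAT libraries, it was 3.39% to 4.50%. These are called the first and the second library set, and no label names them. Within LPS+oxAAT, 94 of 17451 genes (0.539%) differed between the sets, 84 higher (0.481%) and 10 lower (0.0573%) in the second. Called genes are therefore given over all libraries and in the first set alone (5101 and 5102 against the 5 LPS libraries). Fold changes are on the log2 scale with their standard errors (SE), and calls are genes with an adjusted p below 0.05 in edgeR's quasi-likelihood test. Fewer cells of a type and less RNA per cell cannot be told apart in whole lung.

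Over all libraries 808 of 17148 genes (4.71%) were called, 676 higher (3.94%) and 132 lower (0.77%) with oxidized AAT. In the first set alone 13 of 17179 genes (0.0757%) were called, 4 higher (0.0233%) and 9 lower (0.0524%). With the library set as a term in the model, 6 (0.035%) were called, 2 higher (0.0117%) and 4 lower (0.0233%). The fits share the LPS libraries and 5101 and 5102. The count over all libraries was 15 when only the 10 LPS and LPS+oxAAT libraries entered the fit and 259 after a GC trend was removed from each library, and it ran from 167 without 5103 to 1881 without 5102. Of the 13 genes, 11 were also called over all libraries, and for 9 the LPS and LPS+oxAAT libraries did not overlap in CPM. Over all genes tested 2.5% did not overlap (1.48% higher and 1.03% lower), but since the 13 were chosen on libraries that enter both counts, nothing is read from the difference.

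The smallest adjusted p-values of the first set were those of Per1 and Tmem252, both lower. Per1 (chr11:69095217-69109960, plus strand, GRCm38) encodes a repressor of the circadian clock that is also induced by glucocorticoids and by cyclic AMP. It stood at 207, 261, 249, 281 and 202 CPM in the LPS libraries. In LPS+oxAAT it stood at 88.5 and 77.1 CPM in the first set and at 113, 90.3 and 160 CPM in the second. Every LPS+oxAAT library lay below every LPS library, and the highest of them was 5105. Per1 fell by 1.18 ± 0.19 on the log2 scale over all libraries (SE, n = 5 each; adjusted p = 0.00161) and by 1.54 ± 0.17 in the first set (adjusted p = 0.000354). Air lungs held 205, 271 and 184 CPM, so the level with oxidized AAT was below that of mice that had never inhaled LPS (log2 difference -1.40 ± 0.18 in the first set, adjusted p = 0.000193).

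Tmem252 (chr19:24674008-24682233, plus strand), a gene for a small membrane protein, stood at 50.6, 59.3, 72.5, 62.5 and 41.9 CPM in LPS. In LPS+oxAAT the values were 17.8 and 18.2 CPM in the first set and 16.04, 21.7 and 37.5 CPM in the second. Again the groups did not overlap and 5105 was the highest LPS+oxAAT library. Tmem252 fell by 1.37 ± 0.20 over all libraries (adjusted p = 0.000769) and by 1.68 ± 0.18 in the first set (adjusted p = 0.000354). Air lungs held 51.9, 59.3 and 75.7 CPM, and Tmem252 too was lower with oxidized AAT than in air (-1.78 ± 0.19, adjusted p = 3.22e-05). Per1 and Tmem252 kept their call in each of the 21 alternatives tried over all libraries and the 16 tried in the first set. With the library set as a term both were called (adjusted p = 0.0127 for each, log2 differences -1.54 and -1.67), but that fit called no lower gene when 5101 or 5102 was left out.

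The promoter windows of these genes are shown because they had the smallest p-values among the falls of the first-set fit. The sequences are RefSeq's (GRCm38.p6), from 250 bases before to 50 bases after the annotated start, read 5′ to 3′ on the plus strand, and capitals mark matches to the motifs searched. Per1 has 2 annotated starts, with windows at chr11:69098699-69098998 and chr11:69099902-69100201, and the window of Tmem252 is chr19:24673758-24674057.
Per1, upstream start: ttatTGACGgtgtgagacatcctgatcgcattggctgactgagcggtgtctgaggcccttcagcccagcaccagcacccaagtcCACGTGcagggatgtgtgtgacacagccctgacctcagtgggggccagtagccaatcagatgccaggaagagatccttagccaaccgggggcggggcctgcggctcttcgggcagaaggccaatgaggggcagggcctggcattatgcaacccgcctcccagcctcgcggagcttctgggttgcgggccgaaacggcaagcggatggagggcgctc
Per1, downstream start: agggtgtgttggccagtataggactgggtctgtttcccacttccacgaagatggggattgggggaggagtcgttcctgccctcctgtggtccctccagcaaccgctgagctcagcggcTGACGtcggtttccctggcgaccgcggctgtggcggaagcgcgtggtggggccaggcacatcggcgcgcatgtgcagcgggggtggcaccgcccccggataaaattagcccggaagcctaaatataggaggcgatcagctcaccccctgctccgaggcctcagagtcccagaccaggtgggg
Tmem252: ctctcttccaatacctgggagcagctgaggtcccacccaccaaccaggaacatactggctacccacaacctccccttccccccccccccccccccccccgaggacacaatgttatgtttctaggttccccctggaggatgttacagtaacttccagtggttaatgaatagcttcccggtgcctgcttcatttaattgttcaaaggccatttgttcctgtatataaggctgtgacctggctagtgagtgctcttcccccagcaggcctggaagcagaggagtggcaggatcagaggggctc
Searched on both strands were the E-box CACGTG, which clock proteins bind, the cyclic AMP response element TGACGTCA and its part TGACG, which lies within it, and the glucocorticoid response element (AGAACA and TGTTCT, 3 bases apart) and its part TGTTCT. The upstream Per1 window held CACGTG, its first base at position -166 from the start, and TGACG at -246. The downstream window held TGACG at -132. No searched motif was in the Tmem252 window. Of all 32851 windows of 300 bases, 7.15% held CACGTG, 20.8% TGACG, 1.79% TGACGTCA, 19% TGTTCT and 0.00913% the full glucocorticoid element. The window of AA986860 held none of these motifs, and of the 3 windows of Tsc22d3, described next, 1 held TGACG and 1 TGTTCT.

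Tsc22d3, Errfi1, Irx1 and Gata2 were also lower, in both fits. Tsc22d3 (chrX:140539528-140600659, minus strand) encodes GILZ, a glucocorticoid-induced protein that restrains NF-kB. It stood at 267, 327, 369, 352 and 268 CPM in LPS and at 156 and 123 CPM in the first-set LPS+oxAAT libraries. In the second set 5103 and 5104 held 175 and 166 CPM but 5105 held 315 CPM, inside the LPS range. The log2 fold change was -0.76 ± 0.21 over all libraries (adjusted p = 0.0405), a call lost in 8 of the 10 fits that left out a library. In the first set it was -1.18 ± 0.17 (adjusted p = 0.00695), and -1.11 ± 0.18 against air (adjusted p = 0.00229).

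Errfi1 (chr4:150853919-150868892, plus strand) encodes MIG6, a feedback inhibitor of the EGF receptor that growth factors and glucocorticoids induce. LPS libraries held 170, 232, 194, 217 and 164 CPM, and LPS+oxAAT libraries 105, 92.0, 93.5, 96.6 and 153 CPM in the order 5101 to 5105. The groups did not overlap, and 5105 was again nearest to LPS. Errfi1 fell by 0.86 ± 0.15 over all libraries (adjusted p = 0.00376) and by 0.99 ± 0.16 in the first set (adjusted p = 0.016), and it was lower than in air (208, 282 and 296 CPM; log2 difference -1.40 ± 0.18, adjusted p = 0.000177).

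Irx1, a homeobox gene of lung patterning, ran from 135 to 188 CPM in LPS with a median of 150 CPM. In LPS+oxAAT it stood at 56.8, 75.5, 67.3, 82.8 and 125 CPM, below LPS in all 5 libraries. It fell by 0.92 ± 0.18 (adjusted p = 0.00688) and, in the first set, by 1.22 ± 0.20 (adjusted p = 0.0158). Gata2, a transcription factor of mast cells, basophils and endothelium, stood at 132, 150, 130, 159 and 145 CPM in LPS and at 92.9, 90.5, 85.2, 93.1 and 109 CPM in LPS+oxAAT. It fell by 0.61 ± 0.08 (adjusted p = 0.000681), by 0.64 ± 0.11 in the first set (adjusted p = 0.035) and by 0.64 ± 0.12 with the set as a term (adjusted p = 0.0265). The first-set call of Gata2 was lost without 1102 or 1104. Air lungs held 103, 107 and 111 CPM of Gata2, below all LPS libraries and overlapping LPS+oxAAT at library 5105, and no difference from oxidized AAT was called in the first set (-0.21 ± 0.12, adjusted p = 0.685).

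AA986860 and Klf4 were called in the first set but not over all libraries. AA986860, a gene of unsettled function, ran from 148 to 171 CPM in LPS and stood at 99.2, 78.4, 87.7, 91.3 and 181 CPM in LPS+oxAAT. All LPS+oxAAT libraries but 5105 lay below the LPS range, and 5105 lay above it. The log2 fold change was -0.54 ± 0.17 over all libraries (adjusted p = 0.0684) and -0.82 ± 0.11 in the first set (adjusted p = 0.00468). Klf4, a transcription factor of epithelium, endothelium and macrophages, showed the same layout. It ran from 88.7 to 119 CPM in LPS and stood at 56.1, 61.3, 68.1, 74.6 and 159 CPM in LPS+oxAAT, with log2 fold changes of -0.32 ± 0.19 (adjusted p = 0.362) and -0.83 ± 0.13 (adjusted p = 0.0158). Of these first-set falls, those of all genes but Per1 and Tmem252 were lost without 5102, and those of Klf4, Errfi1, Irx1 and Gata2 also without 5101. Either fit leaves a single LPS+oxAAT library, assumed to vary like the other groups.

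**Figure D1:**
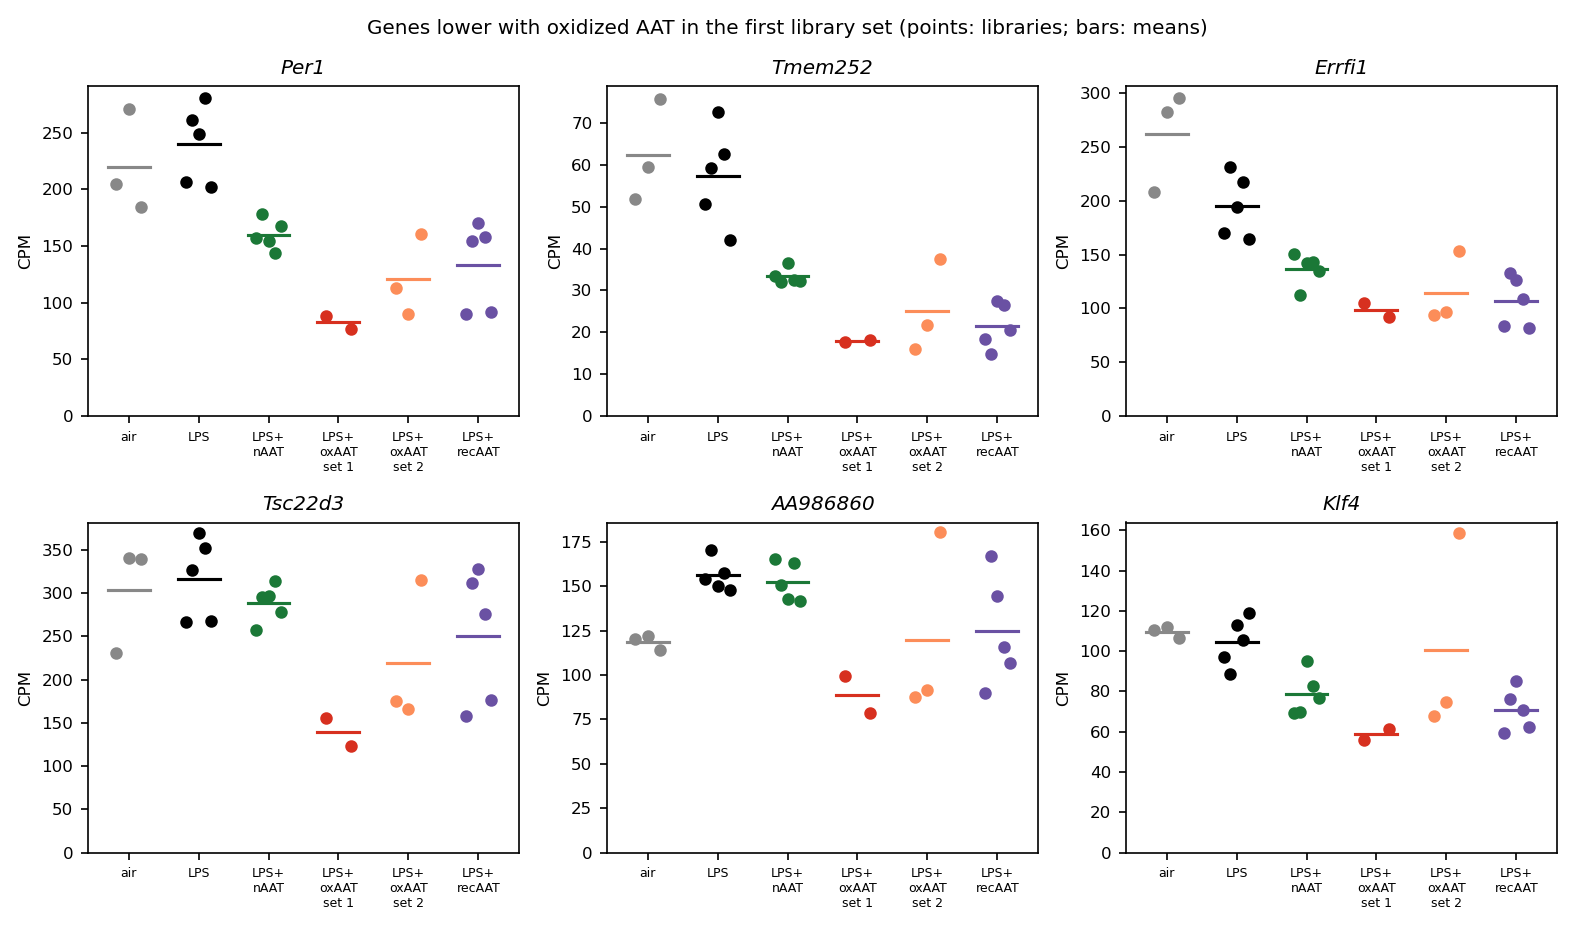
CPM of 6 genes in each library of air, LPS, LPS+nAAT, LPS+oxAAT (first and second library set) and LPS+recAAT, on linear axes from 0, with bars at the means. The first-set LPS+oxAAT points lie below all LPS points in every panel, and 1 second-set point, library 5105, lies above the rest of its group in each.

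Cebpd, Csrnp1 and Rgcc were also among the largest falls over all libraries whose groups did not overlap, and none of them was called in the first set. Cebpd, a transcription factor induced by IL-6 and LPS, went from 47.3 ± 12.1 to 20.3 ± 4.65 CPM (SD, n = 5 each). Its log2 fold change was -1.22 ± 0.22 over all libraries (adjusted p = 0.00427) and the same in the first set (-1.22 ± 0.29, adjusted p = 0.27). Exons of Spidr lie opposite 15% of its exon length, and whether the counting used strand is not stated. Csrnp1, a nuclear immediate early gene, stood at 17.1, 17.9, 17.2, 19.9 and 30.2 CPM in LPS+oxAAT against 31.7 to 60.9 CPM in LPS. It fell by 1.21 ± 0.21 (adjusted p = 0.00311), and in the first set its log2 fold change was -1.43 ± 0.28 (adjusted p = 0.0841). Rgcc, a regulator of the cell cycle that complement induces, stood at 59.8, 60.1, 60.5, 75.0 and 87.8 CPM against 89.9 to 153 CPM in LPS, and fell by 0.73 ± 0.20 (adjusted p = 0.0351), a call lost in 6 of the 10 fits that left out a library.

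On the rising side, 4 genes were called in both fits: Insig1, Klf11, Gpcpd1 and Foxp1. Insig1 (chr5:28071363-28078662, plus strand) encodes a sterol sensor of the endoplasmic reticulum that holds back SREBP, the activator of cholesterol synthesis. It stood at 53.3, 53.6, 52.0, 50.5 and 60.4 CPM in LPS and at 91.5, 87.6, 93.5, 83.8 and 63.6 CPM in LPS+oxAAT. No LPS+oxAAT library overlapped the LPS range, and 5105 was the lowest. Insig1 rose by 0.64 ± 0.10 over all libraries (adjusted p = 0.00111) and by 0.73 ± 0.09 in the first set (adjusted p = 0.00219). Air lungs held 92.6, 90.1 and 101 CPM, near the first-set LPS+oxAAT libraries (log2 difference -0.07, 95% interval -0.29 to 0.15).

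Klf11 (chr12:24651274-24662789, plus strand) encodes a zinc finger transcription factor induced by TGF-beta. LPS libraries held 40.8, 31.5, 41.7, 36.2 and 28.8 CPM and LPS+oxAAT libraries 61.6, 71.4, 75.7, 69.8 and 58.6 CPM, with no overlap. Klf11 rose by 0.91 ± 0.12 (adjusted p = 0.000254) and by 0.89 ± 0.14 in the first set (adjusted p = 0.0141). Air lungs held 59.2, 62.3 and 50.5 CPM. With the library set as a term, Insig1 (0.73 ± 0.12, adjusted p = 0.0145) and Klf11 (0.89 ± 0.15, adjusted p = 0.0127) were the only rises called.

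Gpcpd1, a phosphodiesterase of choline phospholipid breakdown, stood at 48.5 to 54.0 CPM in LPS and at 77.0, 85.7, 89.7, 77.8 and 52.5 CPM in LPS+oxAAT, where 5105 fell inside the LPS range. It rose by 0.58 ± 0.12 (adjusted p = 0.00789) and by 0.67 ± 0.12 in the first set (adjusted p = 0.0293). With the GC curve removed both calls ended, at 0.18 (adjusted p = 0.654) and 0.45 (adjusted p = 0.618). Foxp1, a transcription factor of lung epithelium and lymphocytes, stood at 85.5 to 111 CPM in LPS and at 177, 142, 186, 167 and 171 CPM in LPS+oxAAT, with no overlap. It rose by 0.72 ± 0.10 (adjusted p = 0.000681) and by 0.64 ± 0.12 in the first set (adjusted p = 0.0389). The first-set call of Foxp1 was lost without 1102, 1103 or 1104, and that of Gpcpd1 without 1103 or 1104. Without 5102 the first-set calls of all 4 genes were lost, and without 5101 those of Gpcpd1 and Foxp1.

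Set beside air, most of these genes showed one of the layouts that follow, described after their values were seen. For Per1, Tmem252, Errfi1, Tsc22d3 and Klf4 the first-set level with oxidized AAT was below air in the test (for Klf4 by 0.89 ± 0.14 on the log2 scale, adjusted p = 0.00217), while the LPS libraries overlapped the air range. For Insig1, Klf11, Gpcpd1, Foxp1 and Gata2 no difference from air was called (adjusted p from 0.476 to 0.959), while all 5 LPS libraries lay on 1 side of all air libraries. Irx1 and AA986860 showed neither layout: all their LPS libraries lay above air (102 to 130 and 114 to 122 CPM) and both first-set LPS+oxAAT libraries below it. In all, 251 genes (1.46%) differed between the first-set LPS+oxAAT libraries and air, 213 higher (1.24%) and 38 lower (0.221%).

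**Figure D2:**
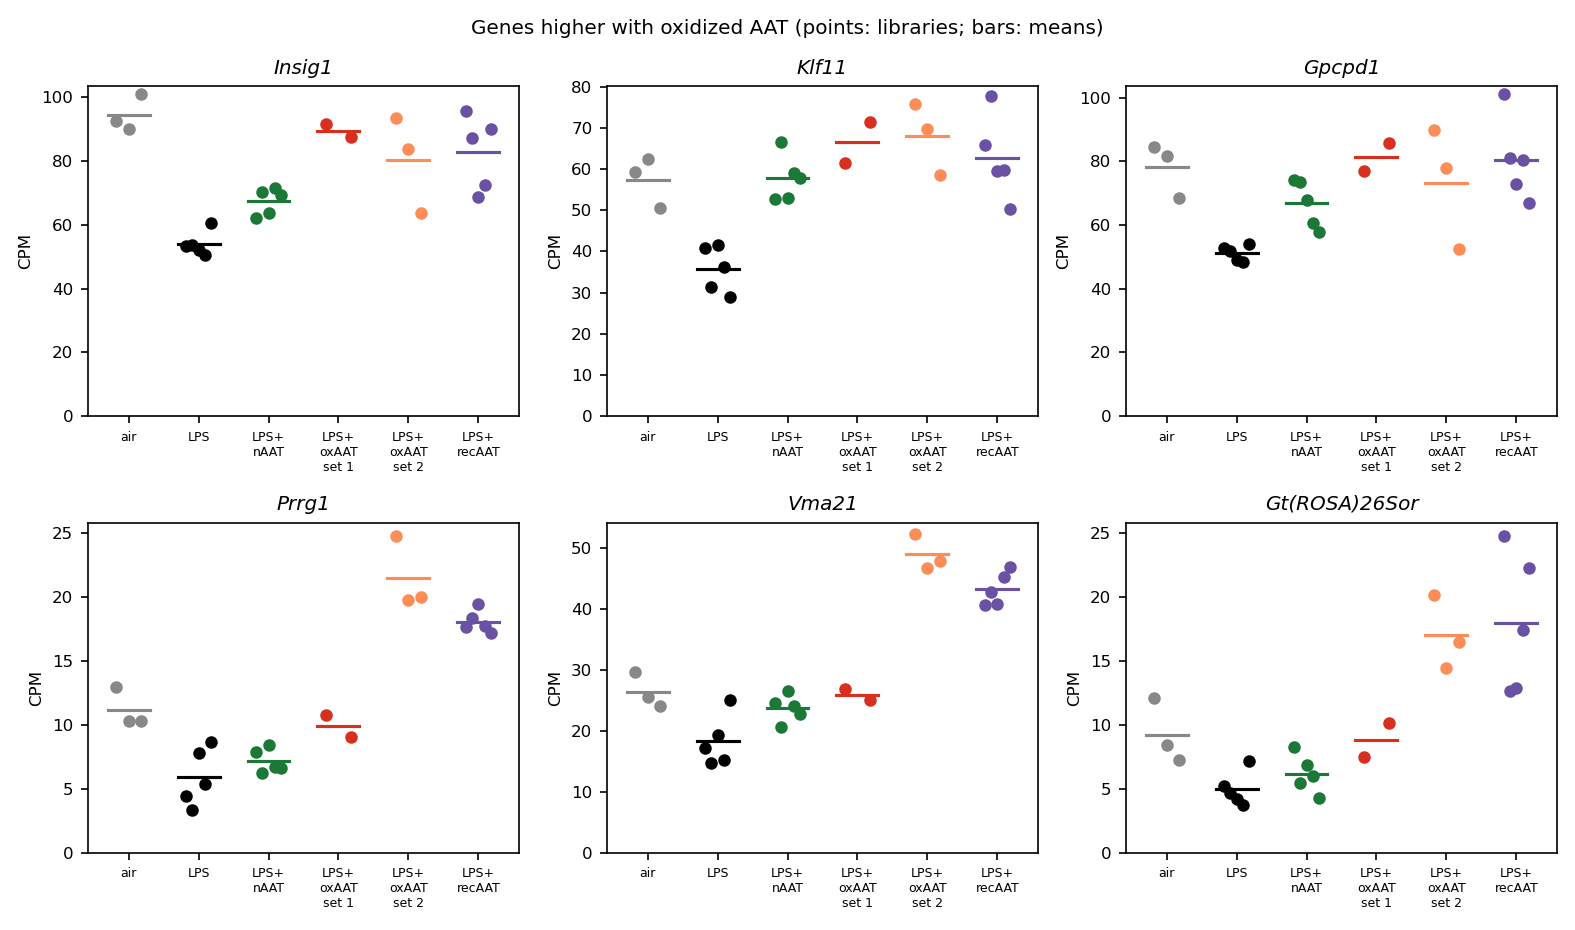
CPM of 6 genes that rose with oxidized AAT over all libraries, in each library of the 6 columns, on linear axes from 0, with bars at the means. In both rows the first-set LPS+oxAAT libraries lie above all LPS libraries. In the lower row, whose genes were chosen for groups that do not overlap, the second-set LPS+oxAAT and the LPS+recAAT libraries lie higher still.

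Of the 676 rises over all libraries 647 had a first-set value, which was the smaller for 601. The rises were chosen in the fit that holds the second-set libraries, which by itself favours such a difference. Their median log2 fold change was 0.54 over all libraries and 0.26 in the first set, and the second-set LPS+oxAAT libraries were above the first-set ones by a median of 0.38. The median GC content of these genes was 41.4%, against 49.8% over all tested genes and 54.7% over the 132 falls. The falls had medians of -0.39 over all libraries and -0.33 in the first set. Exons of 25.3% of the rises, 27.3% of the falls and 26.3% of all tested genes overlapped an exon on the other strand. Of the rises 84 were at least 2-fold and of the falls 10, beside 306 of all 17148 tested genes, called or not. All LPS libraries are of the first set, so between them and the second-set LPS+oxAAT libraries, oxidized AAT and the set cannot be told apart. The sets can be compared only within LPS+oxAAT, the sole group that holds both.

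Prrg1, a membrane protein with a Gla domain, led the 8 largest rises whose groups did not overlap. It stood at 3.35 to 8.64 CPM in LPS, at 10.8 and 9.04 CPM in the first-set LPS+oxAAT libraries and at 24.8, 19.7 and 20 CPM in the second set. It was 1.499 ± 0.235 higher on the log2 scale over all libraries (adjusted p = 0.00132), 0.73 ± 0.26 in the first set (adjusted p = 0.723), and 1.12 ± 0.25 higher in the second than in the first set of LPS+oxAAT (adjusted p = 0.0353). Vma21, which helps to assemble the proton pump of vacuoles and lysosomes, went from 14.7 to 25.1 CPM in LPS to 26.8 and 25.2 CPM in the first set and 52.4, 46.7 and 47.9 CPM in the second. It too differed between the sets within LPS+oxAAT (0.92 ± 0.16, adjusted p = 0.0102).

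Air libraries held 10.3 to 12.9 CPM of Prrg1 and 24.1 to 29.7 CPM of Vma21, about the first-set LPS+oxAAT level. The long noncoding RNAs Gt(ROSA)26Sor (1.46 ± 0.25, adjusted p = 0.00311), Snhg14 (1.49 ± 0.34, 0.0133) and AI504432 (1.30 ± 0.21, 0.00178), the zinc finger gene Zfp992 (1.30 ± 0.26, 0.00663), the vesicle GTPase gene Rab3c (1.19 ± 0.30, 0.0228) and the methyltransferase gene Bmt2 (1.07 ± 0.16, 0.000881) made up the rest of the 8. In the first set these 6 genes had log2 fold changes from 0.63 to 1.18 and adjusted p from 0.506 to 0.92, so none was called there. Gt(ROSA)26Sor and Snhg14 lie opposite Thumpd3 and Ube3a, with 8.55% and 6.91% of their exon length overlapping.

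**Figure D3:**
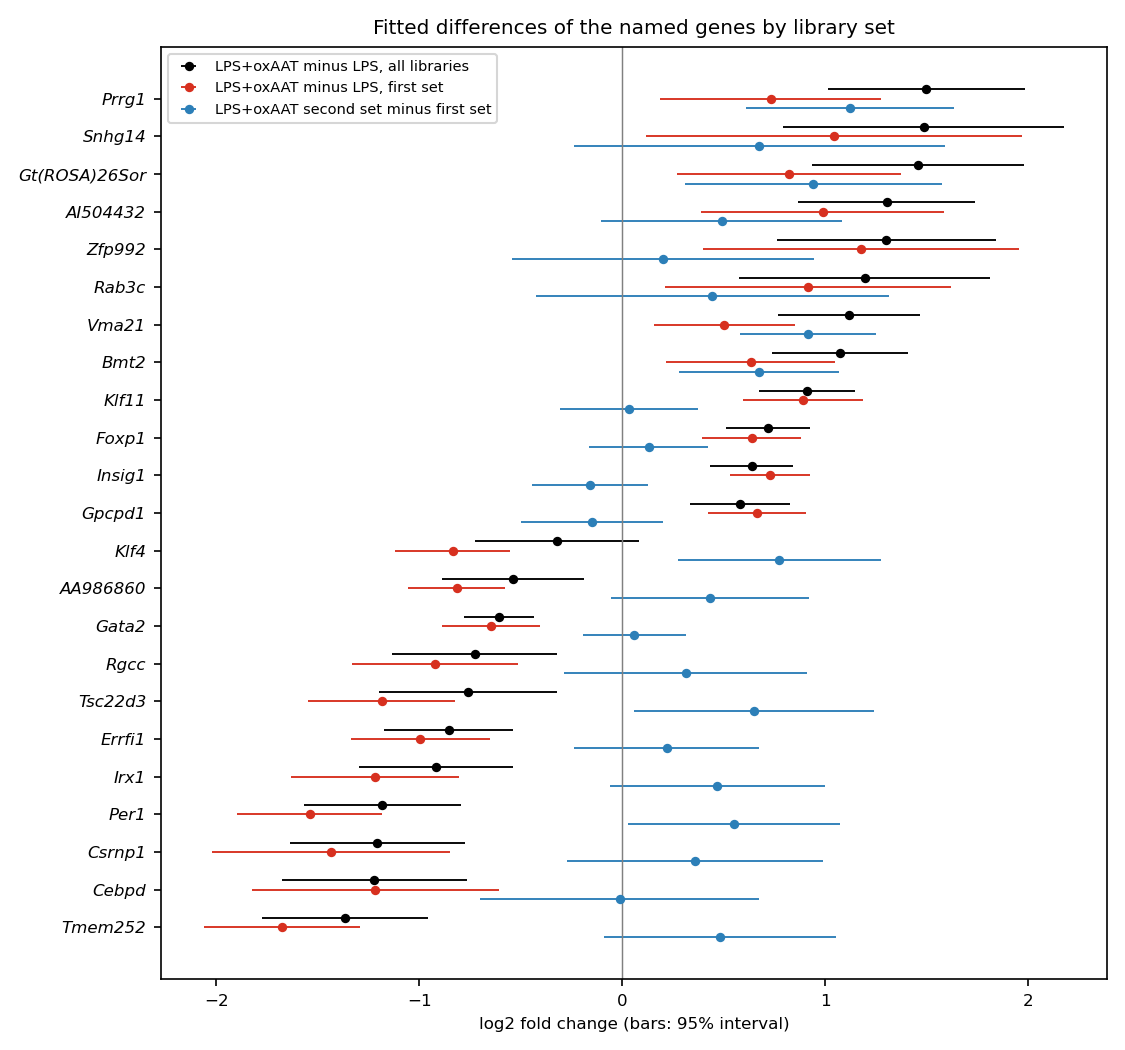
Fitted log2 differences with 95% intervals for the named genes: LPS+oxAAT minus LPS over all libraries (black) and in the first set (red), which share libraries, and the second minus the first set of LPS+oxAAT (blue). For Prrg1 and Vma21 the blue interval lies wholly above 0, while for Klf11, Foxp1, Insig1, Gpcpd1 and Gata2 it crosses 0 and black and red lie close together.

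Glucocorticoid responsive genes did not move together. Of 20 tested, 5 fell and 1 rose over all libraries (0.77% and 3.94% of all genes did), with a median log2 fold change of -0.03 against -0.01 over all genes. The falls were Per1, Errfi1, Tsc22d3, Cebpd and Ddit4, an inhibitor of the growth kinase mTOR (-0.59 ± 0.15, adjusted p = 0.0273; -0.71 in the first set, not called). The rise was that of Zbtb16, a zinc finger factor strongly induced by glucocorticoids, which stood at 30.0, 5.46, 10.47, 13.8 and 54.7 CPM in LPS and at 102, 39.3, 223, 158 and 155 CPM in LPS+oxAAT. Its log2 fold change was 2.56 ± 0.60 over all libraries (adjusted p = 0.0204, lost without 1102, 1104, 5103 or 5104) and 1.62 ± 0.65 in the first set (adjusted p = 0.918), with 5102 inside the LPS range. In the first set 3 members fell, Per1, Errfi1 and Tsc22d3, and none rose.

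Circadian clock genes showed 4 rises and 1 fall among 20 tested over all libraries, beside 3.94% and 0.77% of all genes, with a median of 0.13. Nr1d1 and Nr1d2, which encode the clock repressors REV-ERB alpha and beta, had log2 fold changes of 0.60 ± 0.16 (adjusted p = 0.0298) and 0.73 ± 0.14 (adjusted p = 0.00511). The repressor gene Bhlhe41 (0.61 ± 0.11, adjusted p = 0.00492) and the activator gene Rora (0.69 ± 0.19, adjusted p = 0.0404) also rose. The fall was that of Per1, the sole member called in the first set. Nr1d1 stood at 150, 153, 138, 235 and 179 CPM in LPS and at 271, 351, 265, 202 and 211 CPM in LPS+oxAAT, with 5104 and 5105 inside the LPS range. Its first-set difference was 0.86 ± 0.20 (adjusted p = 0.196), and those of Nr1d2, Bhlhe41 and Rora were 0.43, 0.71 and 0.21, none called. Its call over all libraries was lost without 1101, 1102, 1103 or 5103.

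Immediate early genes, the first transcripts to respond to growth factor and stress signals, had 5 falls and no rise among 25 tested over all libraries (median -0.11), where 0.77% of all genes fell, and 1 fall in the first set, that of Klf4. Beside Csrnp1, the falls were those of Myc (-0.62 ± 0.12, adjusted p = 0.00601), Zfp36, whose protein destabilises inflammatory mRNAs (-0.60 ± 0.14, adjusted p = 0.015), Klf2, a factor of quiescent endothelium (-0.57 ± 0.16, adjusted p = 0.0353), and Btg2 (-0.25 ± 0.07, adjusted p = 0.0376). Myc stood at 11.4, 13.5, 9.43, 9.31 and 13.3 CPM in LPS+oxAAT, below all LPS libraries (15.3 to 20.7 CPM) and above all air libraries (7.71 to 7.90 CPM). Zfp36 and Klf2 each had 1 LPS+oxAAT library inside the LPS range, and leaving out a library ended the call of Klf2 in 7 of 10 fits and that of Zfp36 in 4. The first-set differences were -0.49 for Myc, -0.35 for Zfp36, -0.66 for Klf2 and -0.34 for Btg2, none called. Among 20 EGF receptor ligands and feedback genes, Errfi1 fell and Spred1 rose (0.56 ± 0.15, adjusted p = 0.0284), with a median of -0.02. Of all genes 0.77% fell and 3.94% rose. The call of Spred1 was lost in 6 of 10 fits that left out a library, and its first-set difference was 0.16.

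Of the inflammatory panel, Saa3, Lcn2 and the cytokines and chemokines were not called between LPS+oxAAT and LPS in edgeR. Saa3, an acute phase serum amyloid, stood at 293, 162, 238, 295 and 229 CPM in LPS+oxAAT and at 339, 414, 234, 196 and 248 CPM in LPS, with air at 4.02 to 6.16 CPM. Its log2 difference from LPS was -0.23 with a 95% interval of -0.65 to 0.18, and the ranges overlapped. Lcn2, an iron-binding antimicrobial protein, had -0.07 (interval -0.33 to 0.20). The cytokines Il1b (0.13, -0.27 to 0.53) and Tnf (0.02, -0.40 to 0.44) and the neutrophil chemokines Cxcl1 (0.01, -0.42 to 0.44), Cxcl2 (0.04, -0.46 to 0.54) and Cxcl3 (0.24, -0.46 to 0.93) had intervals on both sides of 0. So did those of the protease inhibitors Slpi (-0.10, -0.34 to 0.14) and Timp1 (-0.20, -0.49 to 0.08) and of Mki67, a marker of dividing cells (0.07, -0.20 to 0.35). Those of the monocyte chemokine Ccl2 (0.71, 0.10 to 1.33, adjusted p = 0.17) and of Marco, a scavenger receptor of alveolar macrophages (-0.51, -1.0 to -0.02, adjusted p = 0.23), did not hold 0, but neither gene was called.

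Against air in the first set, several of these genes were higher with oxidized AAT. The log2 difference was 5.58 ± 0.32 for Saa3, 3.02 ± 0.19 for Lcn2, 1.88 ± 0.32 for Cxcl1 and 1.502 ± 0.2005 for Mki67, each called. Of 18 inflammatory cytokine and chemokine genes, edgeR called 0 over all libraries (median 0.12), with 1 higher and 0 lower at an unadjusted p under 0.05, and DESeq2 called 0 and voom 1. Of all 17148 genes, 3467 had an unadjusted p under 0.05 in edgeR. Among all genes DESeq2 called 998 higher and 260 lower, and voom 1211 higher and 468 lower. Of 25 acute phase and antimicrobial genes 0 were called by any of the 3 tools (1 higher and 2 lower unadjusted). Among 20 targets and feedback inhibitors of NF-kB edgeR called 1, DESeq2 3 lower, and voom 4 lower and 1 higher, while 8 were lower and 1 higher at an unadjusted p under 0.05. The edgeR call was the fall of Nfkbia, the inhibitor that holds NF-kB in the cytoplasm (-0.49 ± 0.10, adjusted p = 0.00985, 125 to 156 CPM in LPS+oxAAT against 162 to 220 CPM in LPS), with a median of -0.17. Nfkbia in the first set had -0.45 ± 0.16 (adjusted p = 0.684). Among 18 genes of the IL-6, STAT3 and C/EBP response Cebpd alone was called (median 0.12). In edgeR 0.77% of all genes fell, beside the 1 call in each of these NF-kB and IL-6 lists.

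**Figure D4:**
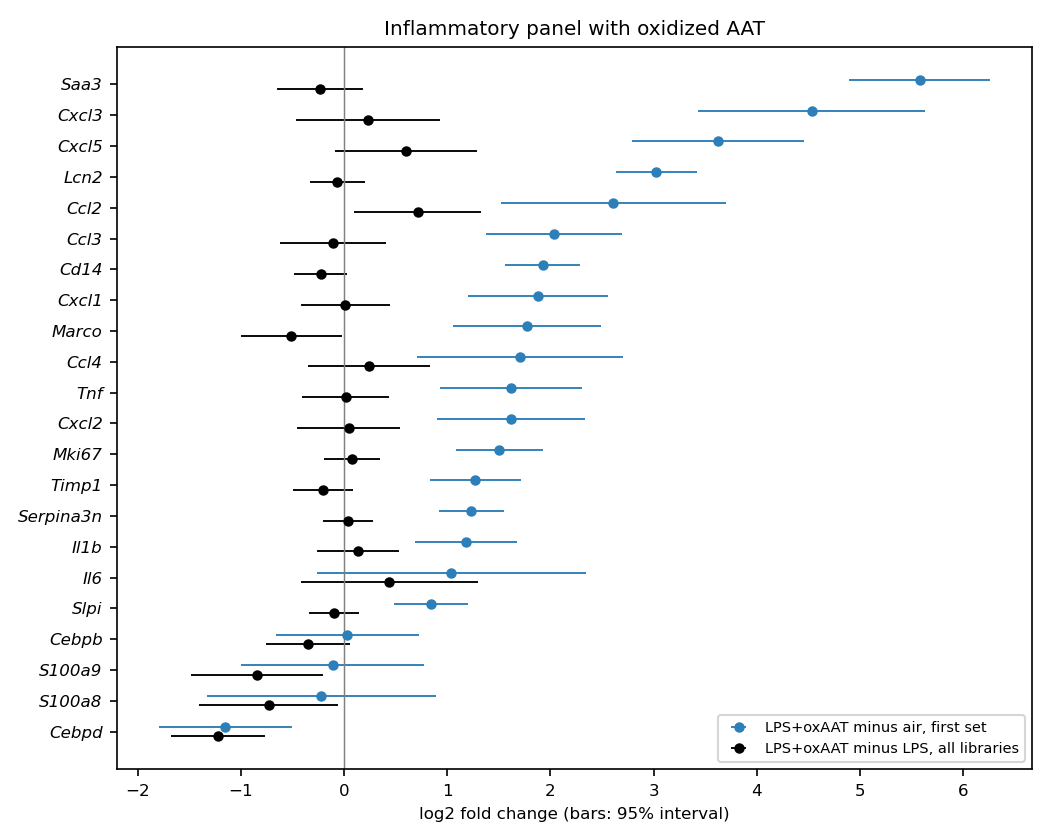
Log2 differences with 95% intervals for a panel of inflammatory genes: LPS+oxAAT minus LPS over all libraries (black) and LPS+oxAAT minus air in the first set (blue). From Saa3 (5.58) down to Slpi (0.84) the blue points lie above 0, while the black points of the same rows lie between -0.51 (Marco) and 0.71 (Ccl2).

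Neutrophil markers had no call for any single gene, and their sum was lower with oxidized AAT in every library. The 19 markers summed to 416 to 516 CPM in LPS, 299 to 387 CPM in LPS+oxAAT and 298 to 335 CPM in air, with a median log2 fold change of -0.27. None of the 19 passed in edgeR, DESeq2 or voom, and 3 were lower and 0 higher at an unadjusted p under 0.05. Such a p was held by 3467 of all 17148 genes. S100a8, which encodes an abundant calcium-binding protein of neutrophils, stood at 32.7, 41.3, 37.4, 37.5 and 53.1 CPM in LPS and at 29.1, 23.8, 20.4, 30.0 and 18.4 CPM in LPS+oxAAT. Its partner S100a9 stood at 98.2 to 130 CPM in LPS and at 71.8, 72.0, 47.8, 72.3 and 39.5 CPM in LPS+oxAAT. Both genes were lower in every LPS+oxAAT library than in any LPS library, as were 1.03% of all genes tested. Their log2 fold changes of -0.73 ± 0.32 (adjusted p = 0.206) and -0.84 ± 0.31 (adjusted p = 0.124) did not pass. Their first-set values were -0.61 and -0.60 (adjusted p = 0.999 for each). Without this pair the other 17 markers summed to 285 to 370 CPM in LPS and 239 to 291 CPM in LPS+oxAAT, which overlap. Of the 17, 14 had a log2 fold change below 0, where the median of all genes was -0.01. The sums were not tested.

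The counts of this paragraph stand beside 3.94% of all genes called higher and 0.77% called lower in edgeR. DESeq2 called 998 genes higher and 260 lower, and voom 1211 and 468. An unadjusted p under 0.05 was held by 3467 of all 17148 genes. Type I interferon genes had 1 rise among 24 tested, Ifit2 (0.50 ± 0.14, adjusted p = 0.0405). In the first set Ifit2 had 0.10 ± 0.15 (adjusted p = 0.999), and it lost its call in 6 of 10 fits that left out a library. Of 18 interferon gamma genes 0 passed in edgeR, DESeq2 or voom, with 5 higher at an unadjusted p under 0.05. Among 28 cell cycle genes Ccna2, a cyclin of DNA replication, rose (0.62 ± 0.15, adjusted p = 0.0157), and its call was lost when 1101, 1102, 1104 or 5105 was left out (0.53 in the first set, not called). Of 18 genes of cholesterol and fatty acid synthesis, Insig1, Idi1 (0.61 ± 0.16, adjusted p = 0.0244) and the desaturase gene Scd1 (0.33 ± 0.10, adjusted p = 0.0495) rose in edgeR, at a median of -0.01, and voom called 1 member lower. Leaving out a library ended the call of Scd1 in 7 of 10 fits and that of Idi1 in 5, and their first-set differences were 0.16 and 0.30, not called. The Nrf2 and oxidative stress genes, which oxidants induce, had 0 of 20 called in edgeR and DESeq2 and 2 in voom (median -0.07; 2 higher and 1 lower at an unadjusted p under 0.05). Of 15 heat shock genes 0 were called in edgeR, DESeq2 or voom, with 2 higher at an unadjusted p under 0.05, and their sum ran from 2697 to 6113 CPM in LPS+oxAAT against 3123 to 3457 CPM in LPS. The list median was 0.20 over all libraries and -0.19 in the first set. Of its members, Hspa1a, Hspa1b, Hspa4l and Dnajb4 were highest in library 5105 within LPS+oxAAT (18.1, 30.35, 133 and 77.9 CPM). Neither protease nor xenobiotic metabolism genes had a call in any of the 3 tools (0 of 16 and 0 of 18; at an unadjusted p under 0.05, 2 and 0).

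**Figure D5:**
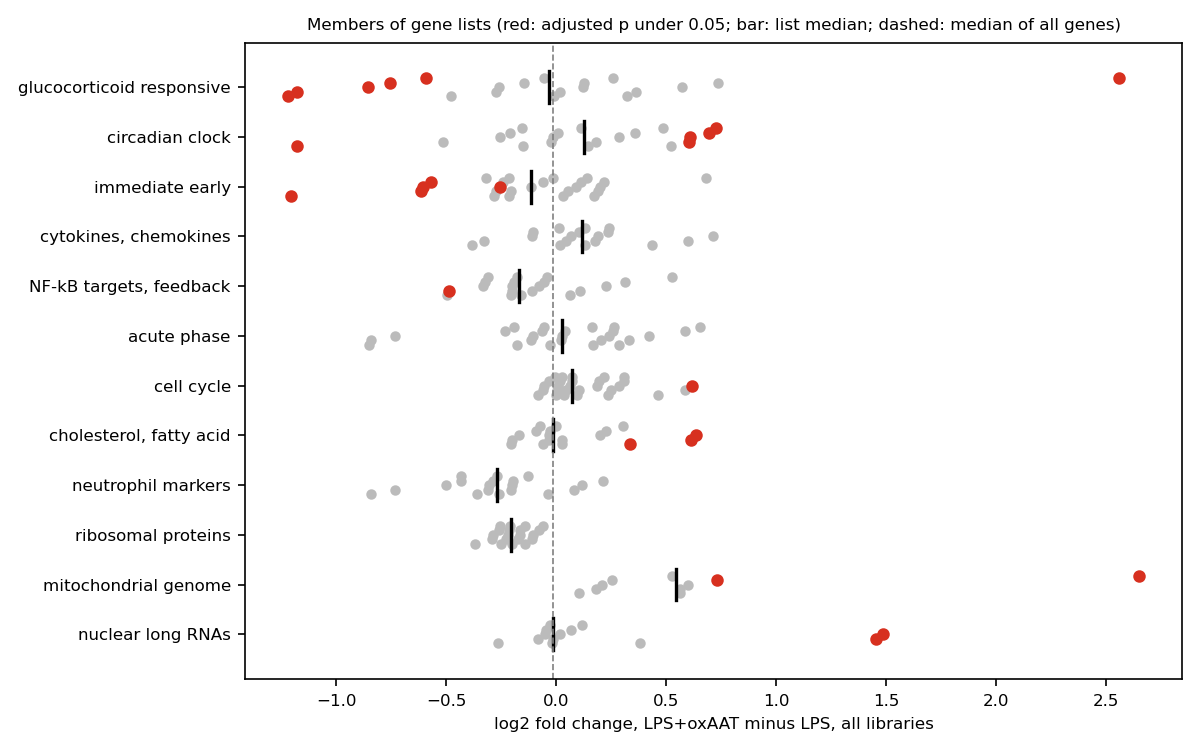
Each point is a gene of a list at its log2 fold change between LPS+oxAAT and LPS over all libraries, red where the adjusted p was under 0.05, with a black bar at the list median and a dashed line at the median of all genes. Red points lie on both sides of 0 for the glucocorticoid and clock lists, on the low side for immediate early genes, and are missing for cytokines, acute phase genes, neutrophil markers and ribosomal proteins.

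Markers of the cell types that lung tissue can hold, and of neighbouring tissue, had few calls. Of the lists for alveolar type 2, airway, fibroblast, smooth muscle, alveolar macrophage, monocyte, dendritic, B, T and NK cells, platelets and red cells, and heart muscle, edgeR called 0 genes over all libraries. At an unadjusted p under 0.05 these lists had from 0 to 4 members, and DESeq2 called 0 and voom 1 in all. Of all 17148 genes, 3467 had such a p, and DESeq2 called 1258 and voom 1679. Of 12 alveolar type 1 markers 1 rose (Cav1, 0.32 ± 0.08, adjusted p = 0.027, lost in 6 of 10 fits that left out a library). Of 16 endothelial markers 1 rose (Calcrl, 1.02 ± 0.24, adjusted p = 0.0162), where 3.94% of all genes rose. Both Cav1 and Calcrl had a smaller difference in the first set (0.15 and 0.31, not called). Of 10 markers of mast cells, basophils and eosinophils Gata2 alone was called, where 0.77% of all genes fell. The other 9 summed to 78.5 to 114 CPM in LPS and 62.3 to 94.3 CPM in LPS+oxAAT, which overlap. Of these 9, 6 had a log2 fold change below 0 over all libraries and 4 in the first set. Over all libraries they ran from -0.53 for Cpa3, a mast cell protease, to 0.71 and 0.84 for the IgE receptor genes Ms4a2 and Fcer1a, none called. The part of these cells in the fall of Gata2 was not tested.

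The remaining lists were of liver and heart transcripts and of RNA classes. Liver transcripts summed to 2.83 to 17 CPM in LPS+oxAAT, 1.82 to 4.95 CPM in LPS and 1.84 to 14.8 CPM in air, and Alb, the albumin gene, was higher with oxidized AAT (1.78 ± 0.51, adjusted p = 0.0453), a call lost in 7 of the 10 fits that left out a library (2.08 in the first set, not called). Heart muscle transcripts summed to 56.9 to 887 CPM in LPS+oxAAT and 153 to 604 CPM in LPS. Of 10 mitochondrial genes mt-Nd6, which divides the library sets, and mt-Nd2 (0.73 ± 0.21, adjusted p = 0.048) were higher, at a median of 0.54. Their first-set differences were 0.07 and 0.61, not called, and the call of mt-Nd2 was lost in 8 of 10 fits that left out a library. The 20 ribosomal protein genes had a median of -0.20, with 0 called in edgeR, 1 lower in DESeq2 and voom, and 7 lower at an unadjusted p under 0.05. Of all 17148 genes, 3467 had such a p in either direction, and DESeq2 called 260 lower and voom 468. Of 13 nuclear long noncoding RNAs, Gt(ROSA)26Sor and Snhg14 were called. Beside the rises in the liver, mitochondrial and noncoding lists, 3.94% of all genes were called higher. The part of these differences in the falls and rises above was not tested.

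Oxidized AAT could be set against the other preparations only within a library set, at the same dose and time. For some genes LPS+nAAT and LPS+recAAT libraries also lay clear of all LPS libraries, on the side of LPS+oxAAT. In that order Per1 held 144 to 178 and 90.5 to 170 CPM and Tmem252 32.1 to 36.7 and 14.9 to 27.5 CPM. Klf11 held 52.7 to 66.6 and 50.25 to 77.7 CPM and Insig1 62.2 to 71.5 and 68.9 to 95.8 CPM. Klf4, Irx1, Gata2, Tsc22d3 and AA986860 overlapped LPS in LPS+nAAT. These differences from LPS were not tested, and for LPS+recAAT they cross the library sets. Against LPS+nAAT in the first set, 2 of 17179 genes (0.0116%) were called, 1 in each direction (0.00582% each). Meis1, a homeobox factor of blood stem cells, was higher with oxidized AAT (72.5 and 80.2 CPM against 41.4 to 49.0 CPM; 0.75 ± 0.10, adjusted p = 0.00886), and LPS alone held 61.7 to 70.9 CPM. AA986860 was lower (99.2 and 78.4 CPM against 142 to 165 CPM; -0.77 ± 0.11, adjusted p = 0.0187). Outside that fit, second-set LPS+oxAAT libraries 5103 and 5104 held 87.7 and 91.3 CPM, but 5105 held 181 CPM, above all LPS+nAAT libraries. Per1 was lower with oxidized than with native AAT by -0.94 on the log2 scale (95% interval -1.29 to -0.60, adjusted p = 0.052) and Tmem252 by -0.88 (-1.25 to -0.51, 0.0963), neither called. Insig1 differed by 0.42 (0.22 to 0.62, 0.23) and Klf11 by 0.21 (-0.09 to 0.51, 0.81). Both calls rest on 5101 and 5102, and without 5102 edgeR called 0 genes, with 993 at an unadjusted p under 0.05.

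Against LPS+recAAT in the second set, 4 of 16427 genes (0.0244%) were called, 2 in each direction (0.0122% each). Nr1d1 was higher with oxidized AAT (265, 202 and 211 CPM against 78.3, 78.1, 111, 79.8 and 87.3 CPM; 1.38 ± 0.12, adjusted p = 0.000805). Igfbp3, which binds insulin-like growth factors, was higher (67.3 to 78.2 CPM against 39.7 to 47.4 CPM; 0.76 ± 0.08, adjusted p = 0.00459). Gadd45g, a stress gene, was lower (12.1 to 12.9 CPM against 19.4 to 24.01 CPM; -0.82 ± 0.11, adjusted p = 0.0153), as was Hgh1 (3.74 to 4.25 CPM against 7.25 to 9.76 CPM; -1.12 ± 0.15, adjusted p = 0.0194). LPS alone, all of the first set, held 138 to 235 CPM of Nr1d1, above LPS+recAAT, and 47.2 to 61.3 CPM of Igfbp3. It held 16.7 to 29.9 CPM of Gadd45g and 4.59 to 10.4 CPM of Hgh1. The differences for Per1 (-0.13, 95% interval -0.75 to 0.49) and Tmem252 (0.24, -0.40 to 0.87) had intervals on both sides of 0.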

How the data were processed

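Poly(A) RNA of whole lung was sequenced as stranded libraries, per the labels' protocols. The deposited table holds read counts per gene made by the authors, which are whole numbers and not normalized. The submitters' processing notes name FastQC 0.11.8, Trimmomatic 0.38 and 0.36, STAR 2.4.0.1, HTSeq 0.11.1 and GRCm38. Whether the counting used strand is not stated. The table has 41388 genes, of which 40340 matched a symbol, and 5 summary lines that entered neither library sizes nor tests. Libraries are called by the mouse numbers in their titles. Nothing else is known of how the mice of a group were kept or processed, so p-values measure the spread between these libraries.

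Counts were fitted with the edgeR 4.0.16 quasi-likelihood test in R 4.3.3, with TMM scaling (factors 0.9775 to 1.028), its default filter on low counts and Benjamini-Hochberg adjustment over all genes tested, at a threshold of 0.05. All groups entered the fit over all libraries. The library sets were split at 2% of mt-Nd6 against mt-Nd5, and the first-set fit used the libraries below it. CPM are counts scaled to the library size in genes after TMM. Intervals are at 95%. Alternatives were DESeq2 1.42.0, limma 3.58.1 (voom with sample weights), other scaling and filters, a stricter threshold, fewer libraries, a GC correction and leaving out each library. On simulated counts the fit over all libraries called 69% of 100 genes changed 1.5-fold and 96% of 100 changed 2-fold, with 6 false calls among 16972 genes. The first-set fit called 33% and 80%, with 5 false calls among 16968. The simulated counts had a single mean per gene over all libraries, apart from the changed genes, and the spread of the fit. Genes of the lowest counts were not changed. The simulation held no library sets, GC trend or outlying library, so its false calls do not measure those of the real fits.

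Named genes were the 8 largest called changes in each direction with groups that did not overlap and an average log2 CPM of at least 1, all calls of the first-set fit and of the fit with the set as a term, up to 4 members of smallest p in each of 35 lists, and an inflammatory panel. Predicted genes and immunoglobulin or T cell receptor segments were left out. The comparison with air was added after the levels were seen, and Ddit4, Rora and Btg2 were named because the counts of their lists needed them. The members and lists were chosen with earlier results of these data known. 1 gene that the rule names is not reported here. Promoters were RefSeq's (GRCm38.p6).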

Additional observations from a re-analysis of the deposited data

Results flagged for a closer look

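In 9 of 104 groups checked, 1 library lay far from the others of its group, by a rule whose critical values let chance flag about 1 in 20 independent groups, which genes measured in the same libraries are not, and 7 of the 9 were LPS+oxAAT library 5105. Genes that were low in the rest of the group were among them. Tmem252 stood at 37.5 CPM in 5105 against 16.04 to 21.7 CPM in the other 4 libraries, and Errfi1 at 153 CPM against 92.0 to 105 CPM. Csrnp1 stood at 30.2 CPM against 17.1 to 19.9 CPM, Klf4 at 159 CPM against 56.1 to 74.6 CPM, Tsc22d3 at 315 CPM against 123 to 175 CPM and AA986860 at 181 CPM against 78.4 to 99.2 CPM. Mki67 stood at 39.5 CPM against 34.4 to 35.2 CPM. The same library held 18.1 CPM of Hspa1a and 30.3 CPM of Hspa1b, which encode inducible heat shock proteins, against 1.39 to 2.33 and 1.63 to 2.4 CPM in the other 4. In LPS, library 1105 held 4.02 CPM of Ccl2 against 0.80 to 1.73 CPM and 16.7 CPM of mt-Nd6 against 5.23 to 8.11 CPM.

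Oxidized AAT differed from another AAT preparation, within a library set, for 6 genes in the test of that difference. Against native AAT these were Meis1 (0.75 on the log2 scale, higher with oxidized AAT) and AA986860 (-0.77, lower). Against recombinant AAT they were Nr1d1 (1.38) and Igfbp3 (0.76), both higher with oxidized AAT, and Gadd45g (-0.82) and Hgh1 (-1.12), both lower.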

How the results depend on the processing

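Among the named genes, only Per1 and Tmem252 kept their call in every alternative of the all-library and the first-set fit. No called value of a named gene changed sign in these 2 fits, and other genes and fits were not checked for sign. Over all libraries 808 genes were called. The count was 154 at an adjusted p under 0.01, 1258 in DESeq2, 1679 in voom, 15 with only the LPS and LPS+oxAAT libraries in the fit, 9 with first-set LPS+oxAAT libraries only and 259 with the GC curve removed, and it ran from 167 (without 5103) to 1881 (without 5102) when a library was left out. Leaving out 1101, 1102, 1104, 1105, 5104 or 5105 also moved it by over 1.5 times (388, 234, 305, 1552, 342 and 416). In the first set, where 13 were called, the count was 6 at an adjusted p under 0.01, 48 in DESeq2, 2 with only LPS and LPS+oxAAT libraries, and from 2 (without 5102) to 24 (without 1105). With the set as a term, where 6 were called, it was 1 at an adjusted p under 0.01, 49 in DESeq2, 1 in voom, and from 0 in edgeR (without 5102, with 915 at an unadjusted p under 0.05) to 41 (without 1105), with 1 without 5101 and 20 without 5105. The cause of these shifts was not tested.

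Alternatives chosen after seeing the data left out a library in the other comparisons. The 94 genes that differed between the sets of LPS+oxAAT became 2 to 30, the 2 against native AAT 0 to 7, the 4 against recombinant AAT 1 to 9, and the 251 against air 108 to 199. With a replicate block made of the final digit of each mouse number, 1167 genes were called over all libraries, 4 in the first set and 3 with the set as a term. Deviations of same-digit libraries correlated from -0.109 to 0.354, and 1 of 5 libraries correlated best with its own digit, so the digits were not taken to pair the mice. The first-set fit rests on 2 LPS+oxAAT libraries. On simulated counts, which held no library sets, it called 33% of genes changed 1.5-fold, against 69% over all libraries.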
